A study of Mus musculus with 14 samples.

Results

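Retained-intron transcripts are annotated transcripts of a gene that keep sequence which its coding transcripts splice out. They were followed here as transcripts of their own, apart from the coding transcripts of the same gene. The members are the transcripts whose GENCODE type is retained_intron and whose mean level over the libraries of a table was at least 1 fragment per kilobase of transcript, scaled to the library's total of fragments (FPKM). Of 128508 transcripts listed, 19087 in 8266 genes have this type. The members numbered 4597 of the 26835 transcripts at or above that mean in the knockout table, 6537 of 31785 in the table of antibody against control pull-downs, and 6106 of 31322 in the table of antibody pull-downs against input. In all, 8041 transcripts of 4252 genes were members in at least 1 table, and 3269 were members in every table. Most, 7958 of the 8041, belong to protein-coding genes, and the other 83 to noncoding genes. The lowest mean inside the threshold was 1.0006 FPKM and the highest outside it 0.99992 FPKM in the knockout table. The corresponding means were 1.0001 and 0.99977 FPKM for the IgG table and 1.0005 and 0.99963 FPKM for the input table.

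The study measured RNA from neonatal mouse cortex, and its 14 samples fall into 5 groups. In the first experiment, frontal cortex at postnatal day 0.5 was compared between 4 C57BL6/J wild-type samples and 4 conditional knockouts (cKO) on the same strain, in which Emx1-cre removes the floxed exon 15 of Auts2. Emx1-driven Cre acts in the dorsal cortical lineage, so cells of other origins in the tissue keep the intact gene. The wild types carry neither Cre nor the floxed allele as far as their labels say, and floxed animals without Cre and Cre alone are not analysed here. In the second experiment, RNA was recovered from wild-type cortex of the same age with an antibody to the C-terminal part of AUTS2 (RIP), with control IgG, or taken as a 10% input, in 2 matched trios named A and B. Each trio came from 2 pooled neonates. The p-values of the first experiment measure the spread between samples that no label ties to separate litters, and those of the second rest on 2 libraries a group.

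During splicing an intron is cut out between a donor site, usually beginning GT, and an acceptor site, usually ending AG. Transcripts that keep an intron often stay in the nucleus, or are exported and removed by nonsense-mediated decay (NMD) when the intron brings a stop codon into the reading frame. Genes for splicing factors, and above all for the serine and arginine rich (SR) proteins and the CDC-like kinases (CLK) that phosphorylate them, are known for introns that are retained in a regulated way in neurons and other cells. AUTS2 is a nuclear and cytoplasmic protein linked to neurodevelopmental disorders, which joins a Polycomb repressive complex and has been described as an RNA-binding protein.

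Whole introns could be read from the reference transcripts of 2754 members, which hold 4242 different introns that another transcript of the same gene removes. The 6 introns below are short, and belong to members whose values are described later. Capitals mark the first 6 bases, at the donor site, and the last 3 bases, at the acceptor site. Coordinates are on GRCm38, and each sequence is written 5′ to 3′ on the strand of its gene. Camkv encodes a kinase-like vesicle protein of neurons, and Camkv-202 (ENSMUST00000192318.1) keeps intron 4 of the 10 introns of Camkv-201, at chr9:107945865-107946078 on the plus strand. Clk1 encodes a kinase of SR proteins, and Clk1-204 (ENSMUST00000129577.7) holds intron 6 of the 12 of Clk1-201 at chr1:58417180-58417266 on the minus strand. Ncl encodes nucleolin, and Ncl-202 (ENSMUST00000185676.6) includes intron 10 of the 13 of Ncl-201 at chr1:86352320-86352509 on the minus strand. Rps20 encodes a protein of the small ribosomal subunit, and Rps20-201 (ENSMUST00000103009.4) retains the first intron of Rps20-203 at chr4:3835292-3835483 on the minus strand. Lypla2 encodes a depalmitoylating thioesterase, and Lypla2-203 (ENSMUST00000145350.1) holds intron 7 of the 9 of Lypla2-201 at chr4:135969530-135969600 on the minus strand. Hsp90aa1 encodes a heat shock chaperone, and Hsp90aa1-206 (ENSMUST00000145255.1) keeps intron 2 of the 10 of Hsp90aa1-201 at chr12:110695419-110695518 on the minus strand, where no in-frame stop codon was found. That intron has 100 bases, a length not divisible by 3, so keeping it would shift the reading frame after it.
Camkv-202: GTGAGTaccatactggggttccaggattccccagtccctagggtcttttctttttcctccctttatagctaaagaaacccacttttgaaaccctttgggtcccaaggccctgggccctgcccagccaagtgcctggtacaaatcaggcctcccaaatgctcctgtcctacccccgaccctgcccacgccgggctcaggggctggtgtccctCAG
Clk1-204: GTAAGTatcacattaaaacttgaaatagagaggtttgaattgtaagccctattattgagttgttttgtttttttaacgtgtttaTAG
Ncl-202: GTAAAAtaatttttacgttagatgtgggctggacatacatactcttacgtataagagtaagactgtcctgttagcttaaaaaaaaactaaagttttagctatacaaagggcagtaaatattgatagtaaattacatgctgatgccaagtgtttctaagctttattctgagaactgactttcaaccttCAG
Rps20-201: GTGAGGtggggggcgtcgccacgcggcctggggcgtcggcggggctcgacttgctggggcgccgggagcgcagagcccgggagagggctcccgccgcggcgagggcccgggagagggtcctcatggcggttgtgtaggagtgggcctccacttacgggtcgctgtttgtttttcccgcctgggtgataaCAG
Lypla2-203: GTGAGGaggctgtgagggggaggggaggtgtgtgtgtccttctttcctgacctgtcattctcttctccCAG
Hsp90aa1-206: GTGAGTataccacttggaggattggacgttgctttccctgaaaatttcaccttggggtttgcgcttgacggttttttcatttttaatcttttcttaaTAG

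Those 6 begin with GT and end with AG, as did 4151 of the 4242 introns (97.9%), while 59 began with GC and ended with AG and 7 ran from AT to AC. The introns were short, with a median of 294 bases and quartiles of 131 and 759 bases, and 2151 (50.7%) had at most 300 bases. Their median GC content was 51.1%. Of the 3501 introns that lie between coding exons, 3132 (89.5%) put a stop codon in frame when read on from the exon before, at a median of 37 bases into the intron. The remaining 369 held no in-frame stop, and 97 of them had a length divisible by 3. A donor site beginning ATATCC or GTATCC, the start typical of introns removed by the minor (U12) spliceosome, stood at 30 introns (0.707%), among them introns of Sms, which encodes spermine synthase, and of Lsm5 and Lsm8, which encode RNA-binding ring proteins. The 3870 introns of retained-intron transcripts below 1 FPKM in every table had a median of 279.5 bases, and 22 of them (0.568%) had such a donor site. The introns of members thus differed little from those of transcripts that did not reach the threshold in length, GC content or ends, and no test was run on this. Small RNA genes lay in the exons of some members: 84 members held snoRNA genes, 51 held miRNA genes and 2 held other small RNA genes.

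Summed FPKM of the Auts2 gene was 29.8, 35.2, 30.4 and 34.5 in cKO 1 to 4 and 87.7, 92.2, 55.9 and 60.2 in wild type 1 to 4, so the groups did not overlap. Over all tested transcripts of the knockout table, wild type 1 correlated at 0.940 and 0.947 and wild type 2 at 0.945 and 0.944 with wild type 3 and 4. The log2 values of cKO 1 correlated at 0.944 to 0.950 with those of the other cKO libraries, which reached 0.954 to 0.957 among themselves. These 3 libraries were left out in an added alternative. Cortical excitatory neuron markers were high in every library, with all 9 detected and a summed level of 779 to 898 FPKM in the cortex libraries, 661 to 704 in RIP and 524 to 545 in input. Choroid plexus markers stayed below 1 FPKM in the knockout table. Radial glia markers summed to 158 to 188 FPKM in RIP and 278 to 300 FPKM in input, red blood cell markers to 19.1 to 39.3 and 67.0 to 77.3 FPKM, and striatal markers to 115 to 127 and 60.3 to 65.0 FPKM. Against IgG, striatal markers summed to 113 to 125 FPKM in RIP and 64.6 to 91.0 in IgG and microglia markers to 8.51 to 9.24 and 13.5 to 14.9 FPKM, while excitatory neuron markers overlapped at 649 to 694 and 647 to 673 FPKM. None of the markers in these lists was at 0 in a whole group. In bulk tissue, fewer cells of a type and less RNA per cell cannot be told apart, and the part of these marker differences in the results that follow was not tested.

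Most members were minor transcripts of their gene. The median mean level was 2.08 FPKM in the knockout table, 2.34 in the IgG table and 2.31 in the input table, and 210, 494 and 452 members had a mean of at least 10 FPKM. In wild-type cortex a member held a median of 8.01% of its gene's summed FPKM, and 57 members held over 50% in every wild-type library. FPKM is scaled per length, so levels can be set side by side between genes. The 8 members with the highest wild-type means included transcripts of translation and splicing genes.

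Rps20-201, which keeps the short first intron printed above, had the highest mean. It stood at 122, 122, 98.6 and 125 FPKM in the wild-type libraries 1 to 4, against 136, 122, 121 and 125 FPKM in the cKO libraries 1 to 4, and held 75.3% ± 2.68 (SD, n = 4) of the gene in wild type. Wild type 3 was the low library and the groups overlapped. Reads of ribosomal protein genes can be shared with processed pseudogenes, so this level is uncertain. Arglu1-204, from a gene for an arginine and glutamate rich splicing regulator, stood at 74.8, 67.9, 66.4 and 80.8 FPKM in wild type 1 to 4, or 80.9% ± 1.5 (SD, n = 4) of the gene. Ncl-202 reached 80.4, 76.9, 57.6 and 73.7 FPKM in the same libraries, or 59.1% ± 2.48 (SD, n = 4) of the nucleolin gene. Both are cases in which the retained-intron transcript was the larger part of its gene. Hnrnpa2b1-211, from an RNA-binding protein gene, reached a similar level, 73.0, 61.9, 77.4 and 87.7 FPKM, but held only 12.7% ± 1.25 (SD, n = 4) of its gene. Rsrp1-204, from a gene for an arginine and serine rich protein, was listed at 54.99, 52.3, 80.6 and 91.7 FPKM in the wild-type libraries 1 to 4, against 89.9, 79.4, 91.2 and 83.1 FPKM in the cKO libraries 1 to 4. Wild type 1 and 2, which are among the libraries that stood apart, were lower than the other 6. Its share of the gene was even, at 83.7% ± 0.713 (SD, n = 4) in wild type and 84.3% ± 2.10 (SD, n = 4) in cKO.

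Ctnnb1-215, from the gene for beta-catenin, was at 60.5, 58.1, 86.4 and 58.0 FPKM in wild type 1 to 4, with wild type 3 as the high library. It overlaps Ulk4 on the opposite strand, and strand-specific counting is not stated for this table, so its level is uncertain. The other members among the 8 highest were Ddx39b-204, from a gene for an RNA helicase of splicing and export, and Pfkp-212, from a gene for a phosphofructokinase.

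Loss of Auts2 in the dorsal cortical lineage was compared first. No member was called higher or lower in cKO by limma at an adjusted p under 0.05, where 0.00373% of all transcripts tested (1 transcript) were called higher and 0.0% lower. The lowest adjusted p of a member was 0.827, and 176 members (3.83%) had an unadjusted p under 0.05, against 5.68% of all transcripts tested. The median difference of the members was -0.03 on the log2(FPKM + 1) scale, beside -0.01 over all transcripts tested, and 43.2% of the members had a positive difference, beside 48.7%. Of the members, 40 (0.870%) were higher in cKO with no overlap of the groups, where 1.83% of all transcripts were, and 86 (1.87%) were lower, where 1.74% were. Without wild type 1, wild type 2 and cKO 1, 0 members were called and the median difference was -0.02.

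Retained-intron transcripts of any level held 5.64, 5.70, 5.61 and 5.59% of the summed FPKM in cKO 1 to 4 and 5.85, 5.64, 5.76 and 5.86% in wild type 1 to 4. The means were 5.64% ± 0.0487 and 5.78% ± 0.104 (SD, n = 4 each), and the groups overlapped through wild type 2. Within the pull-down experiment the part differed between groups: 11.3 and 11.7% in RIP A and B, 9.49 and 10.3% in IgG, and 7.30 and 7.80% in input. Both RIP libraries lay above both IgG and both input libraries. As a part of retained-intron and coding transcripts together, the values were 13.7 and 14.3% in RIP, 12.8 and 13.8% in IgG and 10.3 and 11.4% in input, so RIP and IgG overlapped on this scale and both lay above input. The library kits and the tissue preparation also differ between the experiments, so the cortex and pull-down levels are not compared.

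**Figure D1:**
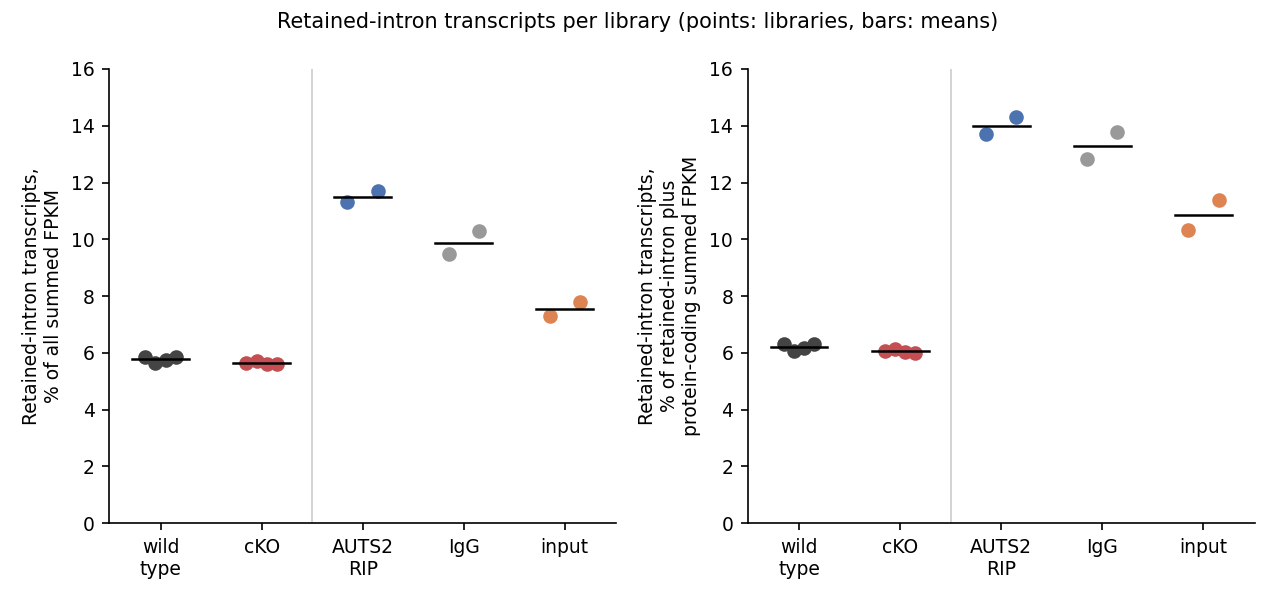
Retained-intron transcripts as a percent of all summed FPKM (left) and of retained-intron plus coding summed FPKM (right), with 1 point per library and bars at group means, for 4 cKO and 4 wild-type cortex libraries and for RIP, IgG and input libraries A and B. On the left the cKO points lie between 5.59 and 5.70% and the wild-type points between 5.64 and 5.86%, while both RIP points (11.3 and 11.7%) lie above the IgG and input points; on the right IgG B (13.8%) lies above RIP A (13.7%).

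Against their own gene, the shares of the members did not differ by the test either. No member's share was called in cKO against wild type by limma, as for all transcripts tested (0.0% in each direction), with a lowest adjusted p of 0.972 and 179 members at an unadjusted p under 0.05. The median share was 7.75% in cKO and 8.01% in wild type. When the retained-intron transcripts of a gene were summed, 0 of 3207 sums were called in either direction by limma (231 at an unadjusted p under 0.05), beside 0.00626% called higher and 0.0% called lower among all sums tested. Those gene sums were added after the data were seen. The median difference of the retained-intron sums was -0.03 and that of the sums of other transcripts 0.00 on the log2(FPKM + 1) scale.

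The members with the strongest statistics are given as values, since none passed the test. Trmt2a encodes a methyltransferase of transfer RNA. Trmt2a-204 stood at 3.5, 3.05, 3.26 and 3.48 FPKM in the wild-type libraries 1 to 4, against 2.24, 2.17, 1.85 and 2.02 FPKM in the cKO libraries 1 to 4, a log2 difference of -0.50 (SE 0.11, limma adjusted p = 0.827). All 4 cKO libraries were below all 4 wild-type libraries. Its share of the gene was 18.2% ± 0.931 in wild type and 11.2% ± 0.572 in cKO (SD, n = 4 each), a difference of -7.00 points (SE 1.11) with an adjusted p of 0.972 by limma. It lies opposite Ranbp1 on the other strand, so part of the reads may belong to that gene.

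Nudt8 encodes a nudix hydrolase. Nudt8-202 held 54.9, 66.2, 69.3 and 62.6% of its gene in wild type 1 to 4 and 45.7, 43.5, 51.6 and 37.6% in cKO 1 to 4. The shares did not overlap, and the difference of -18.6 points (SE 4.10) had an adjusted p of 0.972 by limma. Its levels did overlap, and the gene's other transcripts were at only 1.22 to 3.27 FPKM. Nudt8-202 also overlaps predicted genes on both strands, so its level is uncertain. Rccd1 encodes a chromatin-associated RCC1 domain protein, and Rccd1-203 had the opposite direction. It held 24.97, 22.1, 22.6 and 20.6% of the gene in wild type and 38.7, 31.3, 31.1 and 32.8% in cKO, again without overlap (difference 10.9 points, SE 2.26, limma adjusted p = 0.972). Tmem214-204, from a gene for a membrane protein of the endoplasmic reticulum, held 16.1, 22.6, 28.2 and 22.1% in wild type and 36.8, 33.7, 33.6 and 29.4% in cKO. Its levels overlapped between the groups although its shares did not.

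Pced1a-207 was at 0.240, 1.03, 0.726 and 0.443 FPKM in the wild-type libraries 1 to 4, against 2.85, 2.76, 1.61 and 1.69 FPKM in the cKO libraries 1 to 4, a log2 difference of 1.01 (SE 0.21, limma adjusted p = 0.827). The cKO libraries were all higher, but the values lie near the threshold of 1 FPKM, and the log2 scale with a pseudocount understates changes of low transcripts. Lypla2-203, whose retained intron of 71 bases is printed above, was at 1.99, 2.31, 1.85 and 2.34 FPKM in the wild-type libraries, against 3.6, 3.17, 3.35 and 3.12 FPKM in the cKO libraries (log2 difference 0.47, SE 0.11, limma adjusted p = 0.827). Its share was 5.33% ± 0.823 in wild type and 8.25% ± 0.466 in cKO (SD, n = 4 each). Here both level and share were higher in every cKO library. Dhrs1-204, from a short-chain dehydrogenase gene, stood at 0.715, 0.758, 0.634 and 0 FPKM in the wild-type libraries, against 2.24, 1.87, 1.74 and 1.95 FPKM in the cKO libraries.

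**Figure D2:**
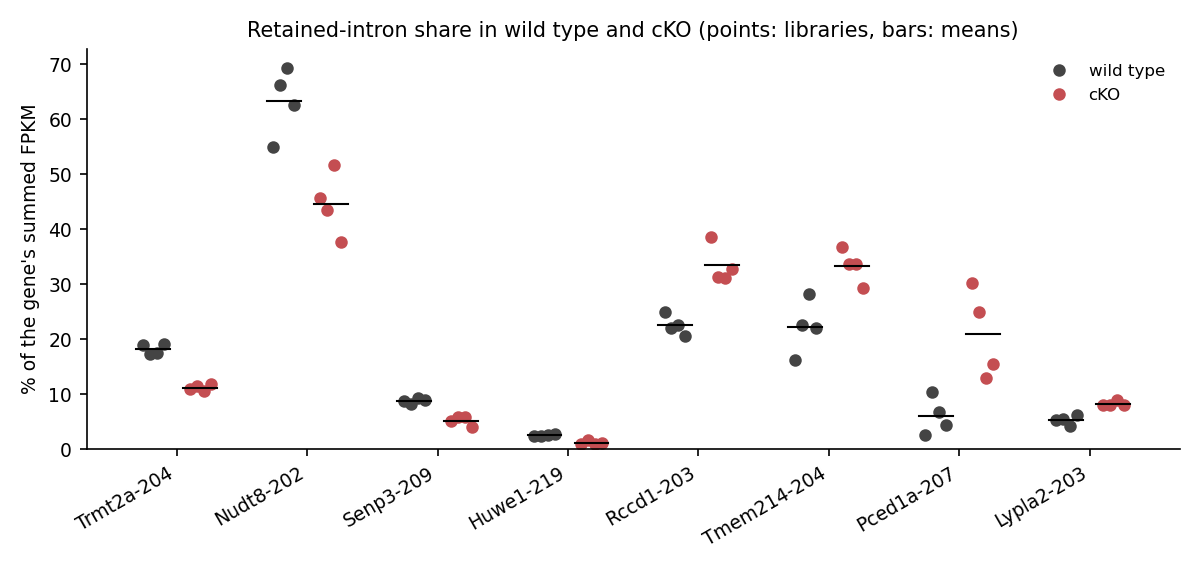
Share of the gene's summed FPKM, in percent, of selected retained-intron transcripts in each of the 4 wild-type and 4 cKO libraries, 1 point per library. Bars are means of 4 libraries. The wild-type points of Trmt2a-204 lie from 17.3 to 19.0% and its cKO points from 10.5 to 11.8%, and Nudt8-202 and Rccd1-203 differ in opposite directions; none passed the test.

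None of the members from genes for RNA processing was called in cKO. Of 41 members from SR protein and CLK genes, 19 had a positive difference, with a median of -0.02. Of 87 from genes for heterogeneous nuclear ribonucleoproteins (hnRNP) and other splicing regulators, 36 were positive, with a median of -0.05. Srsf2-203, from the gene of an SR protein that controls its own splicing, had 25.4, 24.0, 28.1 and 28.3 FPKM in the wild-type libraries, against 31.3, 31.5, 29.0 and 29.8 FPKM in the cKO libraries (log2 difference 0.20, SE 0.07, limma adjusted p = 0.827). The groups did not overlap, and cKO was the higher one, by little. Sf1-207, from the gene for the protein that binds the branch point, was at 1.80, 1.84, 0.965 and 2.75 FPKM in the wild-type libraries, against 0.478, 0, 0 and 0.739 FPKM in the cKO libraries. Hnrnpm-203 was at 2.31, 3.19, 1.23 and 1.70 FPKM and at 0.720, 0.717, 0.918 and 1.09 FPKM in the same order. In both, the cKO libraries were the lower ones and neither passed the test.

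Of 80 members from hosts of small nucleolar RNAs (snoRNA), which guide modification of ribosomal RNA from introns of longer genes, 57 had a positive difference, with a median of 0.09 and none called. Gas5-219, from a noncoding host gene, holds Snord78. It was at 7.36, 5.86, 5.50 and 6.07 FPKM in the wild-type libraries 1 to 4, against 10.1, 10.1, 8.02 and 10.8 FPKM in the cKO libraries 1 to 4 (log2 difference 0.58, SE 0.12, limma adjusted p = 0.827), with every cKO library above every wild-type library. Gas5-212, which also holds Snord78, was at 2.40, 2.25, 2.49 and 3.90 FPKM in the wild-type libraries, against 0, 1.99, 1.74 and 0 FPKM in the cKO libraries (log2 difference -1.13, SE 0.39, limma adjusted p = 0.827). There every cKO library was below every wild-type library, opposite to Gas5-219. Nop56 encodes a core protein of snoRNA particles, and Nop56-213 was at 2.27, 2.84, 3.34 and 1.37 FPKM in the wild-type libraries, against 1.52, 0.556, 0.53 and 0.976 FPKM in the cKO libraries (-0.86, SE 0.23, limma adjusted p = 0.827). Nop56-219 had 1.72, 3.47, 2.78 and 2.08 FPKM in the wild-type libraries and 1.73, 0.935, 2.30 and 0.664 FPKM in the cKO libraries (-0.57, SE 0.25, limma adjusted p = 0.827). Both had lower means in cKO, and the groups overlapped. Over the whole gene, the retained-intron transcripts of Gas5 had a sum of 64.1 ± 4.66 FPKM in the wild-type libraries, against 69.3 ± 6.71 FPKM in the cKO libraries (SD, n = 4 each). The libraries of this gene sum overlapped, unlike those of Gas5-219. Members that hold a snoRNA, miRNA or other small RNA gene numbered 102 in this table, with a median difference of 0.06 and 64.7% positive, beside -0.03 for the other members.

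Among genes of neuronal synapses and channels, 17 of 33 members had a positive difference (median 0.04). Nrxn2-210, from a presynaptic adhesion gene, was at 2.12, 2.2, 2.68 and 2.69 FPKM in the wild-type libraries, against 3.85, 3.41, 3.54 and 3.27 FPKM in the cKO libraries (log2 difference 0.41, SE 0.11, limma adjusted p = 0.827). All 4 cKO libraries were higher. Among genes for Polycomb and chromatin regulators, 12 of 27 members were positive (median -0.01), and among genes known for regulated or detained introns, 23 of 39 (median 0.03).

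The targeted gene itself has 6 listed retained-intron transcripts. Their sum was 1.82, 1.16, 1.33 and 1.19 FPKM in the wild-type libraries 1 to 4, against 1.04, 1.51, 1.34 and 1.12 FPKM in the cKO libraries 1 to 4, so the groups overlapped. The sum of the other Auts2 transcripts was 72.6 ± 18.5 FPKM in the wild-type libraries, against 31.2 ± 2.68 FPKM in the cKO libraries (SD, n = 4 each). The difference of the retained-intron sum was -0.08 (SE 0.13, limma adjusted p = 0.868) and that of the other transcripts -1.16 (SE 0.15, limma adjusted p = 0.0512) on the log2(FPKM + 1) scale. The test of the ratio between them had an adjusted p of 0.537 by limma.

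The antibody pull-down was then set against control IgG from the same pools, the comparison that separates RNA recovered with the antibody from RNA recovered without it. No member passed the test (limma, adjusted p under 0.05; 1107 members had an unadjusted p under 0.05), and neither did any of all transcripts tested, 0.0% in each direction. The lowest adjusted p was 0.0528. With a threshold of 5 FPKM in place of 1, 144 members were called higher and 23 lower, and with a pseudocount of 5 FPKM 22 and 4. Under the first alternative these are 11.1 and 1.77% of the members, beside 11.3 and 4.83% of all transcripts tested, and under the second 0.337 and 0.0612%, beside 0.642 and 0.267%. The median member difference was 0.22 on the log2(FPKM + 1) scale with 60.4% positive, beside 0.13 and 56.0% over all transcripts and 0.16 for coding transcripts. At least 1 log2 unit higher in RIP in both trios were 555 members (8.49%), where 7.57% of all transcripts were, and at least 1 unit lower were 238 (3.64%), where 4.99% were. Libraries of the pull-downs agreed less closely than those of cortex: over members, log2 values correlated at 0.794 between RIP A and B and at 0.512 between IgG A and B, and 27.5% of members were at 0 in at least 1 library.

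Summed per gene, retained-intron transcripts passed the test more often. Of 4171 sums, 305 (7.31%) were called higher and 100 (2.40%) lower in RIP by limma, beside 9.44% and 5.47% of all sums tested, so both shares were below the background. These calls depend on the fit with all 4 libraries, and the median difference was 0.11 to 0.23 with any 1 left out. With trio as a block 228 were called higher and 60 lower, while the background above is that of the fit without it. In 179 of the 305 genes the other transcripts were also called higher, in 6 lower, and in 119 not called. Shares of the gene did not pass: no member's share was called by limma (0.0% of all transcripts in each direction, 580 members at an unadjusted p under 0.05), and the median share was 10.5% in RIP and 10.9% in IgG. With coding transcripts only as the denominator, some shares were called, as given with the alternatives at the end.

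The third comparison set RIP against the input of the same pools. It uses the same RIP libraries as the second, so both comparisons share them and are not independent, and the table was scaled by itself, which makes the RIP values differ slightly between the tables. RIP levels given beside IgG levels are those of the IgG table. Of the members, 219 (3.59%) were called higher and 28 (0.459%) lower in RIP by limma, beside 4.48% and 2.35% of all transcripts. With trio as a block, 0 were called in either direction, and 0 were called when any 1 library was left out, so these calls depend on the unblocked fit with all 4 libraries. The median member difference was 0.48 with 69.3% positive, beside 0.17 and 56.8% over all transcripts, 0.13 for coding transcripts and 0.34 for NMD transcripts. At least 1 log2 unit higher in both trios were 1012 members (16.6%), where 11.7% of all transcripts were, and at least 1 unit lower were 178 (2.92%), where 6.2% were.

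**Figure D3:**
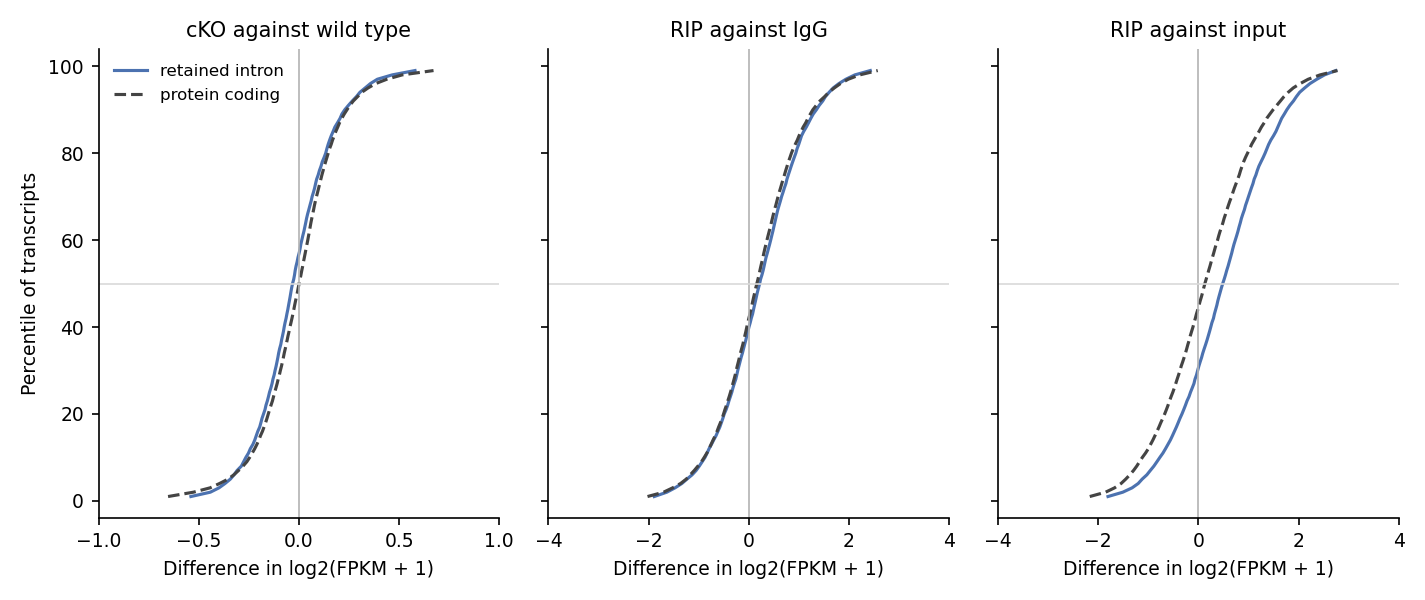
Percentile of transcripts (vertical axis) against the difference in log2(FPKM + 1) (horizontal axis, narrower for the knockout) of retained-intron (solid) and coding (dashed) transcripts in cKO against wild type, RIP against IgG and RIP against input. The members centre on -0.03, 0.22 and 0.48, and the coding transcripts on 0.00, 0.16 and 0.13.

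Of 4067 retained-intron sums per gene, 735 (18.1%) were called higher and 102 (2.51%) lower in RIP against input by limma, beside 15.9% and 10.9% of all sums. The block by trio kept the counts near this, at 674 and 88, while the shares of all sums above are those of the fit without it. Without RIP A or without RIP B 0 were called, without input A 424 and 36, and without input B 435 and 23. In 418 of the 735 genes the sum of the other transcripts was called higher too, in 23 it was called lower, and in 290 it was not called. Among the 102 genes with lower sums, the others were lower in 38, higher in 5 and not called in 52. No member's share passed the test by limma (0.0% of all transcripts in each direction, 721 members at an unadjusted p under 0.05, lowest adjusted p 0.325), and the median share was 11.3% in RIP and 9.46% in input. Here too, some shares were called when the denominator was coding transcripts only.

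Members from splicing genes held some of the highest levels. Prpf4b encodes a kinase that acts on the spliceosome, and Prpf4b-206 (chr13:34875504-34884766) was at 118 and 120 FPKM in RIP A and B, 22.5 and 30.6 FPKM in IgG, and 49.6 and 45.5 FPKM in input. Against input the log2 difference was 1.33 (SE 0.09, limma adjusted p = 0.03), and against IgG it was 2.14 (SE 0.17, limma adjusted p = 0.0528). Both RIP libraries were above all 4 others. Its share of the gene was 76.0% ± 0.564 (SD, n = 2) in RIP and 74.6% ± 2.97 (SD, n = 2) in input, and 61.4 and 60.8% in IgG. The gene's other transcripts were at 36.6 and 38.8 FPKM in RIP and 14.2 and 19.7 FPKM in IgG, and no share difference passed the test.

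Sf3b1 encodes the core protein of the U2 particle that recognises branch points. Sf3b1-203 was at 82.3 and 76.7 FPKM in RIP, 21.2 and 29.5 in IgG and 19.7 and 20.9 in input, with a log2 difference of 1.94 (SE 0.10, limma adjusted p = 0.03) against input and 1.63 (SE 0.19, limma adjusted p = 0.0569) against IgG. Rbm5 encodes a regulator of exon definition, and Rbm5-219 was at 93.1 and 93.4 FPKM in RIP, 37.6 and 43.6 in IgG and 32.7 and 32.7 in input. Its log2 difference was 1.51 (SE 0.08, limma adjusted p = 0.03) against input. Both transcripts were higher in RIP A and RIP B than in the other 4 libraries. Hnrnpl encodes an hnRNP that binds CA repeats. Hnrnpl-206 was at 48.6 and 54.6 FPKM in RIP and 14.8 and 13.4 in input of that table, and held 39.9 and 44.1% of the gene in RIP and 22.1 and 19.3% in input. The log2 difference was 1.80 (SE 0.13, limma adjusted p = 0.03), while the share difference of 21.3 points (SE 5.91) did not pass (limma adjusted p = 0.405). All Hnrnpl retained-intron transcripts summed to 78.4 and 88.2 FPKM in RIP and 31.3 and 29.5 in input, while the gene's other transcripts were at 43.1 and 35.7 against 35.8 and 40.1 FPKM.

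SR protein and CLK genes had 51 members in this comparison, of which 43 had a positive difference (median 1.05) and 5 were called higher and 0 lower by limma. In this and the lists that follow, the calls against input stand beside 4.48% higher and 2.35% lower over all transcripts, and with trio as a block no member was called. Of all members, 69.3% had a positive difference against input. Clk1-204, whose intron 6 is printed above, was at 24.4 and 22.7 FPKM in RIP and 9.48 and 9.60 in input (log2 difference 1.22, SE 0.13, limma adjusted p = 0.0346). Srrm1 encodes a splicing coactivator, and Srrm1-207 was at 39.0 and 32.8 FPKM in RIP and 8.17 and 10.1 in input (1.87, SE 0.18, limma adjusted p = 0.0308). Rsrp1-204 was at 150 and 131 FPKM in RIP and 65.8 and 66.6 in input (1.07, SE 0.10, limma adjusted p = 0.0306). In all 3 the RIP libraries were above both inputs. The other transcripts of Srrm1 were also called higher against input, by 1.80 (limma adjusted p = 0.0027), beside 1.85 for its retained-intron sum. Rsrp1-204 was at 69.6 and 83.4 FPKM in IgG A and B, against 147 and 129 FPKM in RIP of that table. Of the 107 members from hnRNP and other splicing genes, 84 were positive (median 0.67), 10 called higher and 0 lower. Against IgG, the same lists had 37 of 50 (median 0.47) and 68 of 109 (median 0.27) positive members, none called by limma. Of all members, 60.4% were positive there. In share of the gene, these lists had 24 and 47 positive members (medians -0.13 and -0.46 points), where 47.45% of all members were positive. Of their 19 and 33 gene sums, 7 and 9 were called higher and 0 and 2 lower against IgG, beside 9.44% higher and 5.47% lower over all sums, and 0 were called with any 1 library left out.

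Among Polycomb and chromatin genes, 45 of 54 members were positive against input (median 0.89), where 69.3% of all members were, with 6 called higher and 0 lower. Chd4 encodes the helicase of the NuRD complex, and Chd4-206 (chr6:125113541-125114621) was at 109 and 126 FPKM in RIP and 40.7 and 42.9 in input (log2 difference 1.47, SE 0.11, limma adjusted p = 0.03), with the RIP libraries above both inputs. The other Chd4 transcripts were called higher against input too, by 1.21 (limma adjusted p = 0.0035). Atrx encodes a chromatin remodeller, and Atrx-216 was at 29.2 and 36.2 FPKM in RIP and listed at 0 in both IgG libraries. The gene's retained-intron transcripts together were at 115 and 129 FPKM in RIP and 37.1 and 38.4 in IgG, so RNA of the locus was also recovered with IgG. Against IgG, 41 of 59 members of the list were positive (median 0.33), where 60.4% of all members were. In share of the gene, 21 members of the list were positive (median -0.36 points), where 47.45% of all members were. Of 35 gene sums, 6 were called higher and 0 lower against IgG, beside 9.44% higher and 5.47% lower over all sums tested. As above, these calls depend on the fit with all libraries.

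Members from synaptic and cytoskeletal genes are given next. Agrn encodes agrin, an organiser of synapses. Agrn-207 holds whole introns of 412 and 736 bases and was at 67.9 and 64.3 FPKM in RIP, 21.5 and 24.0 in IgG and 11.2 and 9.71 in input. The log2 difference was 2.58 (SE 0.13, limma adjusted p = 0.03) against input and 1.5 (SE 0.11, limma adjusted p = 0.0528) against IgG. Sptan1 encodes alpha-spectrin, and Sptan1-211 was at 68.5 and 68.7 FPKM in RIP, 18.1 and 21.4 in IgG and 8.17 and 5.42 in input (3.20, SE 0.22, limma adjusted p = 0.03 against input). In both, IgG lay between RIP and input. The other transcripts of these genes were also called higher against input, by 1.46 for Agrn (limma adjusted p = 0.0046) and 1.36 for Sptan1 (limma adjusted p = 0.0027). The ratio of the retained-intron sum to the other transcripts did not pass in either gene (limma adjusted p = 0.322 and 0.299). Camkv-202, whose intron is printed above, was at 99.5 and 94.4 FPKM in RIP, 46.5 and 56.3 in IgG and 32.7 and 32.3 in input, with a log2 difference of 1.57 (SE 0.09, limma adjusted p = 0.03) against input. It was the larger part of its gene in each pull-down group, at 68.0 and 75.7% in RIP, 65.0 and 66.9% in IgG and 55.9 and 60.8% in input, and it lies opposite a predicted gene on the other strand.

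Of 74 members from synapse and channel genes, 54 were positive against input (median 0.62), with 4 called higher and 0 lower in the fit without the block. Gria2-206, from an AMPA receptor subunit gene, was called higher with the smaller difference of 0.72 (77.4 and 82.0 FPKM in RIP, 47.4 and 48.4 in input, SE 0.09, limma adjusted p = 0.0362).

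Hsp90aa1-206, whose retained intron without an in-frame stop is printed above, was at 207 and 235 FPKM in RIP and 160 and 134 in IgG of that table, and at 123 and 147 FPKM in input. The RIP libraries were above the others, with a log2 difference of 0.74 (SE 0.13, limma adjusted p = 0.0582) against input and 0.59 (SE 0.13, limma adjusted p = 0.112) against IgG, so neither passed. Its share was 37.1 and 39.4% in RIP, 46.5 and 44.2% in IgG and 33.8 and 42.6% in input. In the cortex libraries the same transcript had a mean of only 1.02 FPKM in wild type and 1.49 FPKM in cKO. There it held 0.511% and 0.690% of its gene. The library kits and the tissue preparation differ between the experiments, so these values are only given side by side. The level of this transcript is uncertain, and the cause of the disagreement was not tested.

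Some members were present in RIP and listed at 0 in both inputs. Sel1l-205, from a gene of protein quality control in the endoplasmic reticulum, was at 12.2 and 22.5 FPKM in RIP. Cntn2-205, from an axonal adhesion gene, was at 14.5 and 15.3 FPKM. Mink1-212, from a kinase gene, was at 12.2 and 9.88 FPKM, and Srrt-205, from a gene of RNA cap biology, was at 10.2 and 10.4 FPKM. The other Mink1 transcripts were at 103 and 102 FPKM in RIP and 29.4 and 25.9 in input (1.85, limma adjusted p = 0.0027). Levels in IgG are not given here for these members, so recovery without the antibody is left unstated. An FPKM of 0 can stem from the estimate that divides reads between transcripts of a gene, so no fold is given. Such zeros were common: 2073 of 6106 members (34.0%) were at 0 in at least 1 library of this table, and 186 were at 0 in one library and at 5 FPKM or more in the other of the same group.

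**Figure D4:**
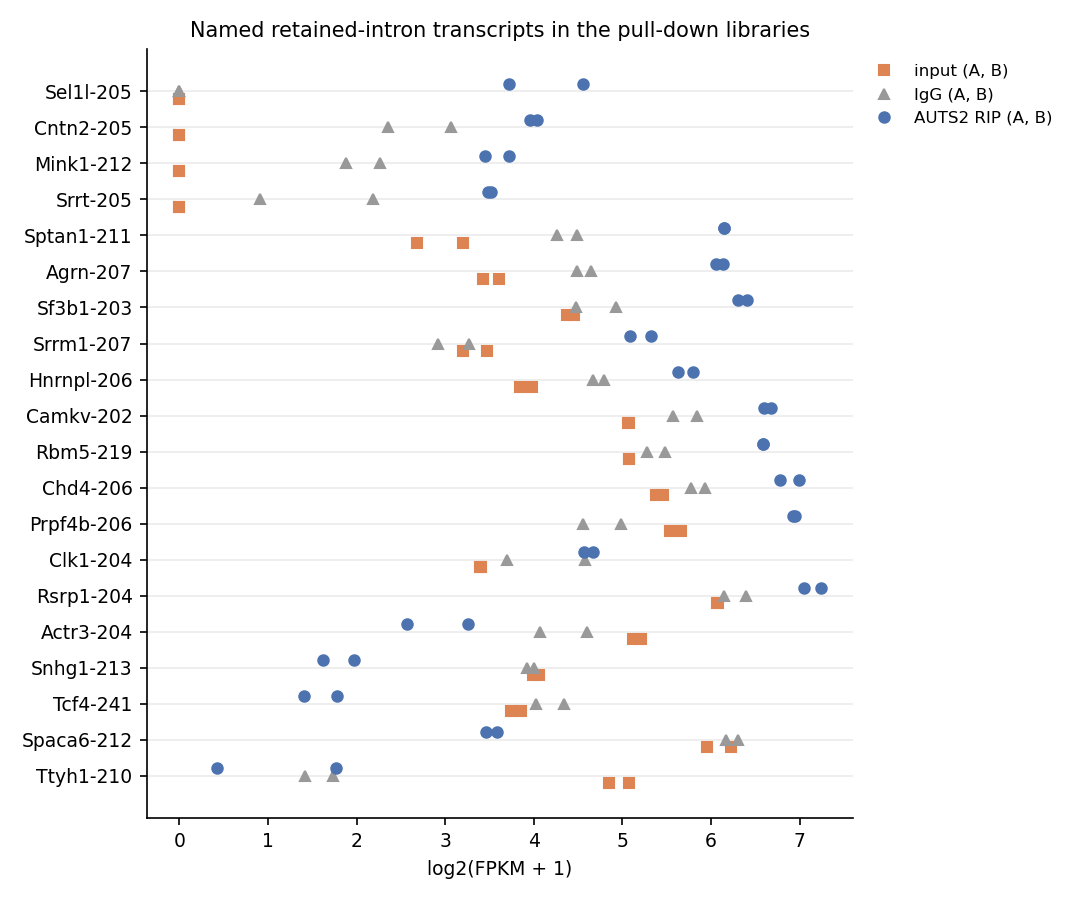
Level as log2(FPKM + 1) of selected retained-intron transcripts in RIP, IgG and input libraries A and B, 1 point per library. Prpf4b-206, Sf3b1-203 and Agrn-207 are highest in both RIP libraries, and Spaca6-212 and Snhg1-213 are lowest there.

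Members that were lower in RIP were fewer. Spaca6 is known for a sperm protein needed in fertilisation, and Spaca6-212 was at 9.81 and 10.9 FPKM in RIP, 70.7 and 77.8 in IgG and 61.1 and 73.5 in input. The log2 difference was -2.57 (SE 0.15, limma adjusted p = 0.03) against input and -2.73 (SE 0.13, limma adjusted p = 0.0528) against IgG. Its share of the gene stayed high in all, at 68.8 and 72.8% in RIP, 71.6 and 66.8% in IgG and 78.9 and 77.0% in input, so the whole locus was lower in RIP. Snhg1-213, from a snoRNA host gene, holds Snord22. It was at 2.05 and 2.89 FPKM in RIP, 14.1 and 15.0 in IgG and 15.6 and 14.9 in input (-2.22, SE 0.23, limma adjusted p = 0.0327 against input). It held 11.4 and 13.7% of the gene in RIP and 48.3 and 46.9% in input, a share difference that did not pass (limma adjusted p = 0.325). In RIP and IgG the gene's other transcripts summed to 0 FPKM, so its share there is taken among retained-intron transcripts. Their sum was 17.9 and 21.1 FPKM in RIP and 33.0 and 47.5 in IgG (-0.99, limma adjusted p = 0.0366). Tcf4-241, from a neuronal transcription factor gene, was at 1.61 and 2.40 FPKM in RIP, 19.3 and 15.3 in IgG and 12.4 and 13.4 in input (-2.20, SE 0.25, limma adjusted p = 0.0359 against input). In these 3 members, IgG and input were both higher than RIP.

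Calm2-202 and Actr3-204 also separated IgG from input, and the members after them are given against input only. Calm2 encodes calmodulin, and Calm2-202 was at 27.6 and 24.0 FPKM in RIP, 61.2 and 64.0 in IgG and 19.4 and 9.68 in input. RIP lay below IgG and above input, and neither difference passed (limma adjusted p = 0.0528 and 0.217). Actr3-204, from an actin nucleation gene, was at 4.93 and 8.54 FPKM in RIP and 33.8 and 36.0 in input (-2.25, SE 0.28, limma adjusted p = 0.0374), and at 15.8 and 23.3 in IgG. Ttyh1-210, from a gene expressed in glia, was at 0.347 and 2.39 FPKM in RIP and 27.8 and 32.6 in input (-3.86, SE 0.52, limma adjusted p = 0.0406). It overlaps a gene on the other strand. Its gene's retained-intron transcripts summed to 3.70 and 5.53 FPKM in RIP and 28.6 and 32.6 in input (-2.51, limma adjusted p = 0.0039), while the other transcripts were at 48.1 and 51.8 against 60.7 and 61.3 FPKM (-0.28, limma adjusted p = 0.0918). Radial glia markers were also lower in RIP than in input, and their part in this difference was not tested. Tpt1-207, from a snoRNA host gene with many pseudogenes, was at 58.8 and 82.3 FPKM in RIP and 229 and 209 in input (-1.64, SE 0.19, limma adjusted p = 0.0359), with even shares of 41.1 and 46.0% in RIP and 46.0 and 41.5% in input. snoRNA hosts were mixed as a list, with 53 of 86 members positive (median 0.51), 5 called higher and 4 lower in the fit without the block, beside 4.48% and 2.35% of all transcripts.

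Auts2 transcripts were themselves measured in the pull-downs. Auts2-206 was at 1.37 and 1.88 FPKM in RIP and 7.07 and 4.16 in IgG, and Auts2-218 at 0.53 and 0.8 in RIP and 4.47 and 3.85 in IgG. Both were lower in both RIP libraries, with limma adjusted p of 0.159 and 0.103. The 6 retained-intron transcripts of the gene summed to 6.48 and 10.6 FPKM in RIP and 19.8 and 15.7 in IgG (limma adjusted p = 0.0654), and to 8.28 and 8.39 FPKM in input. The other Auts2 transcripts were at 268 and 264 FPKM in RIP and 214 and 224 in IgG (limma adjusted p = 0.0805). The ratio between the sums did not pass against IgG (limma adjusted p = 0.425). Against input, the retained-intron sum differed by 0.02 (limma adjusted p = 0.963) and the other transcripts by 0.83 (limma adjusted p = 0.0198). Their ratio did not pass there either (limma adjusted p = 0.494).

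Members were also set side by side by the number of whole introns they hold. Members that hold no whole coding intron, but an exon end inside one, are the larger class, and 1969, 2246 and 2116 members of the 3 tables hold at least 1 whole intron. In RIP against input, the median difference was 0.34 with no whole intron, 0.68 with 1 and 0.76 with 2 or more. In RIP against IgG the medians were 0.11, 0.43 and 0.36, and in cKO against wild type they were all -0.03. GC content went the same way: against input the medians were 0.17 under 45% GC, 0.55 from 45 to 55% and 0.83 above 55%, and against IgG -0.01, 0.27 and 0.40. Members of a single exon had medians of -0.06 against input and -0.18 against IgG. With the length and GC trends of each library removed, the median over members was 0.56 against input and 0.27 against IgG. These are descriptions without a test, since members of a gene and classes of length and GC content are not independent.

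**Figure D5:**
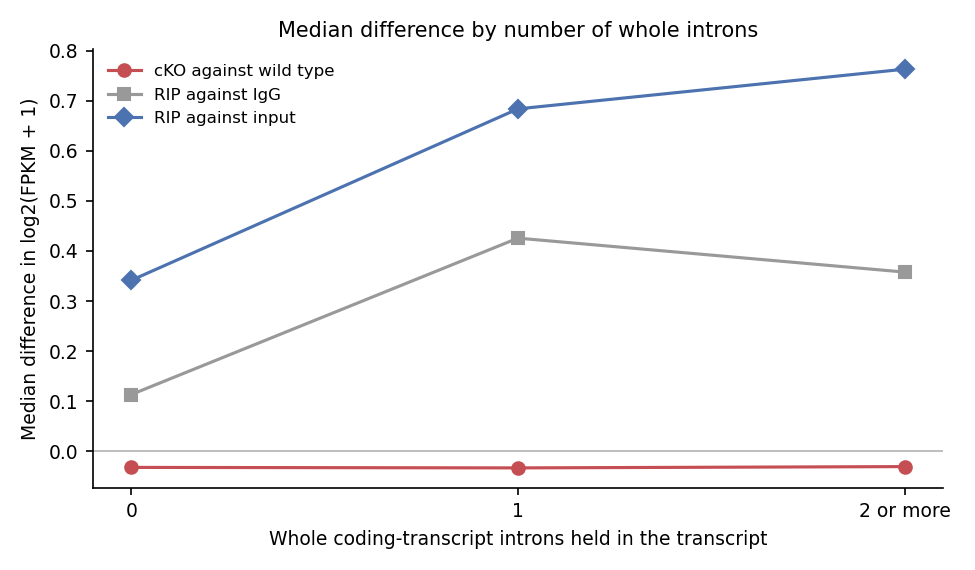
Median difference in log2(FPKM + 1) over members that hold 0, 1, or 2 or more whole introns of coding transcripts, for the 3 comparisons. The medians against input go from 0.34 to 0.68 and 0.76, those against IgG from 0.11 to 0.43 and 0.36, and those of cKO against wild type are all -0.03.

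Shares with the largest differences belonged to low transcripts. Taf1c-206, from a gene of RNA polymerase I initiation, was at 5.38 and 3.63 FPKM in RIP and 0.0023 and 0 in input, or 61.2 and 54.3% against 0.0906 and 0% of its gene. Crtap-202, from a gene of collagen modification, was at 0 and 0.0775 FPKM in RIP and 3.86 and 4.38 in input, or 0 and 2.33% against 75.1 and 89.0% of its gene. Neither share passed the test (limma adjusted p = 0.325 for both), and both transcripts overlap a gene on the other strand.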

How the data were processed

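The authors deposited transcript tables in FPKM with 1 column per library, one table for cKO against wild type and one each for RIP against IgG and input, per the file headers. STAR 2.5, SAMtools and Cuffdiff 2.2.1, build GRCm38.p4 (mm10) and GENCODE vM14 are named per the submitters' processing notes, and kits and pull-down steps per the labels' protocols. FPKM gives no counts, so the depth behind each value is unknown, and errors are those between libraries.

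Transcript type, exons, introns and sequences were matched by identifier to GENCODE vM21 on GRCm38 (127975 identifiers matched, 533 did not). Intron sequences were cut from its transcripts. A transcript retyped between releases would enter or leave the members.

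Transcripts with a mean of at least 1 FPKM were tested with limma (trend and robust) on log2(FPKM + 1), on the percent share of the gene's FPKM and, added after the data were seen, on sums per gene, with Benjamini-Hochberg adjustment over all features of a table, two-sided, at 0.05. The fits were tested on simulated data. The trios share a pool, so they are paired; same-letter deviations correlated at 0.0073 with IgG and 0.0115 with input. Alternatives changed the pseudocount, filter, scaling, block, share denominator and libraries. Named were up to 8 called members in each direction whose higher group reached 2 FPKM, or the 5 strongest statistics where fewer than 5 were called, up to 4 per gene list of 6 lists, the 8 highest in wild type, and every Auts2 member. Camkv-202, Clk1-204, Hsp90aa1-206 and Nxf1-210 were chosen once their values were known. Ncl-202, Rps20-201, Nudt8-202 and Rccd1-203 were named by the rule and also picked with their values known. Members and lists were chosen with earlier results of these data known.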

Additional observations from a re-analysis of the deposited data

Results flagged for a closer look

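Among the named members, 98 groups of 4 cortex libraries were examined for a library far from the other 3, by a criterion that chance meets in about 1 of 20 groups, and 7 met it. In wild type 3, Ctnnb1-215 was at 86.4 FPKM (58.0 to 60.5 in the others), Eif4a1-212, from a translation factor gene, at 5.80 FPKM (2.181 to 2.716), and Rps20-201 at 98.6 FPKM, below the others at 121.85 to 124.94 FPKM. In wild type 4, Gas5-212 was at 3.90 FPKM (2.25 to 2.49), Nxf1-210, from an RNA export gene, at 2.15 FPKM (2.66 to 2.69), and Dhrs1-204 at 0 FPKM (0.634 to 0.758). In cKO 1, Tmem120a-203 was at 1.25 FPKM, while the other 3 cKO libraries were at 0 to 0.00072 FPKM.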

How the results depend on the processing

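In cKO against wild type, 0 members were called under every alternative run for levels and gene sums, and for shares with the exception of 1 lower share when the denominator was coding transcripts only. The median level difference turned to 0.0019 with a threshold of 5 FPKM, from -0.032. In RIP against IgG, levels gave 144 higher and 23 lower calls with a threshold of 5 FPKM and 22 and 4 with a pseudocount of 5 FPKM. Shares of coding transcripts only gave 15 and 4, and the rate over all transcripts in that setting is not given here. The gene sums gave 0 and 0 calls without trend and robust fitting, 190 higher with quantile normalization, 60 lower with the replicate block, and 0 to 0 in either direction when 1 library was left out. The median share difference, -0.305 points, ranged from -0.473 to 0.172 with 1 library left out, and turned to 0.172 points without IgG B. In RIP against input, levels gave 0 and 0 calls with the replicate block, without a filter on low values, and without trend and robust fitting, 94 and 10 with a pseudocount of 0.1, 144 higher with quantile normalization, 14 lower with length and GC trends removed, and 0 to 0 with 1 library left out. Shares of coding transcripts only gave 32 and 7, again without that rate, so no excess of members can be read from these counts. Gene sums ranged from 0 to 435 higher and 0 to 36 lower with 1 library left out, where the lone library of an arm is assumed to vary like the others. The cause of each was not tested. Fewer libraries and fewer or more transcripts entered the fits with a library or the filter changed. Same-numbered cKO and wild-type libraries correlated at 0.0488, -0.0184, 0.0129 and 0.0243 in their deviations, so they share only a number, and the replicate block left 0 members called. Of 968 alternative values of named transcripts, 778 kept direction and side of the threshold, 163 lost the call and 27 gained it. None of them changed direction. Depth is unknown, which limits low transcripts most.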
